A study of Mus musculus with 12 samples.

Results

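The genes described here are 36 genes for protein folding. They come from a written list and not from their measured values, though earlier results of these data were known. They comprise 21 genes of the endoplasmic reticulum (ER), its chaperones and the sensors and targets of the unfolded protein response (UPR), called ER members, and 15 genes for cytosolic chaperones, their co-chaperones and their regulator, with 2 mitochondrial chaperones among them, called heat shock members. The whole series lists transcripts of 35521 genes, of which 12555 passed an expression filter and were tested, 34 of the 36 members among them. RNA was measured in 4T1 cells, a mammary carcinoma line from BALB/c mice, in 3 groups of 4 libraries each: Tu-Gr1+CD11b+–primed 4T1 cells (labelled 4T1_MDSC_T), Spl-Gr1+CD11b+–primed 4T1 cells (4T1_MDSC_S) and parental 4T1 cells (4T1). Primed cells had shared medium with Gr1+ cells for 48 hours across a porous Transwell membrane, the Gr1+ cells having been taken by magnetic columns from the tumor or the spleen of BALB/c mice that carried 4T1 tumors. How the parental wells were set up is not given in the sources used here. The labels give day 21 after injection for this isolation, and the study's methods give a different day. All 3 groups are the same line in culture, and the labels do not say whether libraries of a group came from separate cultures, so p-values measure the spread between these libraries, which may be technical.

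Chaperones hold unfolded proteins and help them reach their shape. In the ER, the HSP70-type chaperone BiP (*Hspa5*) works with HSP90-type GRP94 (*Hsp90b1*), the lectin chaperones calreticulin and calnexin and the protein disulfide isomerases, and the sensors IRE1 (*Ern1*), PERK and ATF6 raise many of these genes when unfolded proteins build up. In the cytosol, the transcription factor HSF1 drives HSP70, HSP90 and small heat shock genes, while the chaperonin complexes CCT and HSP60/HSP10 fold proteins within a closed cavity in the cytosol and in mitochondria.

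Libraries held 24566183 to 31637755 assigned reads (median 27277534), and levels are given as CPM, reads scaled to library size. The limit of 3 counts, below which 0 reads cannot be told from a low level, stood at 0.0941 to 0.126 CPM and covers counting error only. In bulk RNA, fewer cells of a type and less RNA per cell cannot be told apart. The cells expressed the mammary epithelial markers fixed for this check, whose summed level was 1838 to 2249 CPM in Tu-Gr1+CD11b+–primed, 2334 to 2516 CPM in Spl-Gr1+CD11b+–primed and 2611 to 3895 CPM in parental libraries, so this sum moved with the groups and its part in the results was not tested. The keratin genes *Krt8*, *Krt18* and *Krt7* made up most of it and fell in both primed groups. *Cdh1* fell in Tu-Gr1+CD11b+–primed cells (-0.314, adjusted p = 0.00114) and gave -0.165 in Spl-Gr1+CD11b+–primed cells (adjusted p = 0.055). *Epcam* rose by 0.302 in Spl-Gr1+CD11b+–primed cells (adjusted p = 0.00573) and gave 0.113 in Tu-Gr1+CD11b+–primed cells (adjusted p = 0.227), and *Cldn7* gave 0.116 and 0.097 (adjusted p = 0.648 and 0.694). The 12 granulocyte markers summed to at most 4.19 CPM in any library, of which *Cxcr2* gave the largest part (1.53 to 3.73 CPM across the 12 libraries), and 5 or 6 of them had 0 reads in every library of a group. Retained-intron and nonsense-mediated decay transcripts held 5.64% to 5.83% of reads in Tu-Gr1+CD11b+–primed, 5.37% to 6.13% in Spl-Gr1+CD11b+–primed and 3.93% to 4.35% in parental libraries.

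Short promoter sequences show which members carry the letters of known stress elements. The promoters, from 250 bases before to 50 bases after the RefSeq start on GRCm38.p6, were found for 18 ER and 11 heat shock members. The ER members *Manf*, *Hyou1* and *Atf6* and the heat shock members *Hspa8*, *Hsp90aa1*, *Hsp90ab1* and *Hsf1* had no window and were not searched. The ER stress response element was searched on both strands as CCAAT and CCACG with 9 bases between them, and 7 of the 18 ER members held it (*Hspa5*, *Hsp90b1*, *Calr*, *Canx*, *Creld2*, *Dnajc3* and *Pdia6*), against 39 of 32851 promoter windows of all genes (0.12%). The 4 genes shown are BiP and the 3 element-bearing members whose level differed from parental cells, and the capitals mark the element on the strand of the gene, read as CGTGG and ATTGG where it is reversed.
*Hspa5*: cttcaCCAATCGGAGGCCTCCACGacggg
*Hsp90b1*, nearer element: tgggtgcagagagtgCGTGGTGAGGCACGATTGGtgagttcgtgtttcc
*Hsp90b1*, farther element: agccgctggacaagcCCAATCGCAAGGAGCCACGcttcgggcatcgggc
*Calr*: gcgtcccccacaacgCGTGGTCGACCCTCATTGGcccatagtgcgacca
*Creld2*: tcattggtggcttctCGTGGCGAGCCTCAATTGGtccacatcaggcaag
The *Hspa5* stretch lies on the plus strand at chr2:34772020-34772048, where GENCODE M21 places an exon of *Hspa5* that starts upstream of the RefSeq start. Those of *Hsp90b1* lie on the minus strand at chr10:86705518-86705566 and chr10:86705623-86705671, that of *Calr* on the minus strand at chr8:84847060-84847108 and that of *Creld2* on the plus strand at chr15:88819505-88819553, all outside annotated gene models. The elements began between 65 (*Hspa5*) and 212 (*Hsp90b1*) bases before the start.

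The heat shock element, searched as at least 3 alternating units of GAA and TTC with 2 bases between them, stood in the promoters of *Hspd1*, *Hspe1* and *Hsph1*. These are 3 of 11 heat shock members (27.3%), against 0.66% of all genes with a promoter window. *Hspd1* and *Hspe1*, which encode HSP60 and HSP10, are transcribed away from each other from a shared promoter, and the same run of 4 units lies before both starts, shown on the strand of *Hspe1*.
*Hspe1* and *Hspd1*: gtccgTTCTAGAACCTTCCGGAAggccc
It lies at chr1:55088054-55088081, where GENCODE M21 annotates an exon of *Hspd1*, and begins 89 bases before the RefSeq start of *Hspe1* and 144 before that of *Hspd1*. In *Hsph1* the same run was met from alternative starts, beginning 16 or 37 bases after them. The core of the UPR element, TGACGTGG, was in none of the members' windows and in 0.68% of all windows. These matches describe letters in the window and say nothing of which factor bound there.

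Levels between genes were compared in TPM, which scale each transcript by its length, in parental cells (mean ± SD, n = 4). Cytosolic chaperones were the most abundant members: *Hspa8*, the constitutive HSP70, was at 3493 ± 118.5 TPM, *Hsp90ab1* at 2414 ± 287 TPM and *Hsp90aa1* at 1563 ± 115 TPM, the HSP90 isoforms. The ER chaperones *Hsp90b1* (1103 ± 226 TPM), *Calr* (885 ± 67.0 TPM) and *Hspa5* (719 ± 112 TPM) followed, and neighbours among these 3 overlapped within 1 SD of their means. The ER sensor *Ern1* (7.12 ± 1.68 TPM) and the co-chaperone *Dnajb9* (9.30 ± 1.05 TPM) were the lowest ER members. Stress-inducible *Hspa1b* was at 19.4 ± 3.79 TPM. *Hspa1a* (0 to 2 reads per library) and *Hspb1*, the small heat shock protein HSP25 (0 to 4 reads), were at or near the counting floor in all 12 libraries and were not tested. *Hspa1a* and *Hspa1b* are near-identical, so the division of reads between them is uncertain.

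Comparison of Tu-Gr1+CD11b+–primed with parental 4T1 cells asks what exposure to tumor-derived Gr1+ cells changed. Cytosolic and mitochondrial chaperone genes fell nearly throughout: 12 of 13 tested heat shock members were lower (92.3%, against 28.0% of all 12555 genes), and 0 were higher (31.2% of all genes), with a median log2 fold change of -0.45 against 0.02 for all genes. Their fitted log2 fold changes lay between -1.12 (*Hspa1b*) and -0.13 (*Dnaja1*). In all 12 called genes the 4 primed libraries lay below the 4 parental ones. This was read from the same libraries as the calls, and its share over all genes was not counted. ER members did not move together. Of 21 tested, 5 were higher (23.8%) and 6 lower (28.6%), shares close to those of all genes, and their median was -0.074, or -0.029 on protein-coding transcripts alone.

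Comparison of Spl-Gr1+CD11b+–primed with parental cells, which uses the same parental libraries, asks the same of spleen-derived Gr1+ cells. Here 10 of 13 heat shock members were lower (76.9%, against 22.5% of all genes) and 0 higher (25.7% of all genes), with a median of -0.42 against 0.02 for all genes. Among ER members 2 were higher (9.5%) and 6 lower (28.6%), with a median of -0.102, or -0.06 on protein-coding transcripts alone. The 0 heat shock members called higher by edgeR were also 0 at an unadjusted p under 0.05, and DESeq2 and limma-voom called 0 in both comparisons with parental cells.

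**Figure D1:**
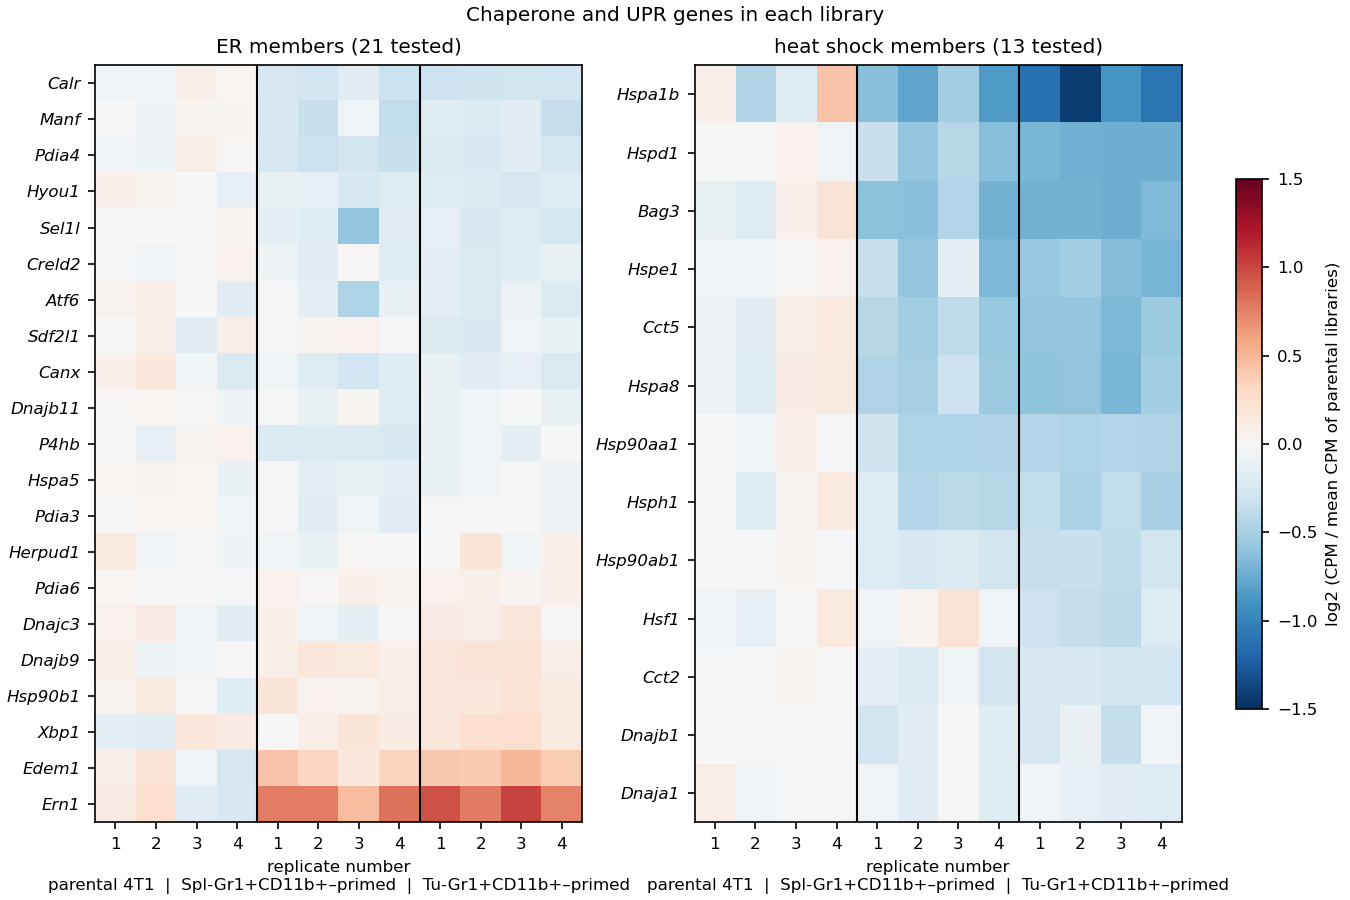
Heat maps of the 21 ER members (left) and 13 tested heat shock members (right) in each of the 12 libraries, colored by the log2 ratio of the CPM to the mean CPM of the parental libraries. Among heat shock members the median of this ratio was -0.49 to -0.44 in Tu-Gr1+CD11b+–primed and -0.46 to -0.30 in Spl-Gr1+CD11b+–primed libraries. Of the ER members, 6 (*Ern1*, *Edem1*, *Xbp1*, *Hsp90b1*, *Dnajb9* and *Pdia6*) are above 0 in all 8 primed libraries. A larger set (*Hspa5*, *Calr*, *Canx*, *Pdia4*, *P4hb*, *Manf*, *Hyou1*, *Sel1l* and *Atf6*) is below 0 in all 8. The shares of all genes that do so were not counted. The value 0 is the parental mean, and parental libraries lie away from it too, such as replicate 3 for *Xbp1* (0.16) and replicate 4 for *Canx* (-0.222). *Pdia6*, *Hspa5*, *Canx* and *Atf6* were not called in either comparison with parental cells.

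**Figure D2:**
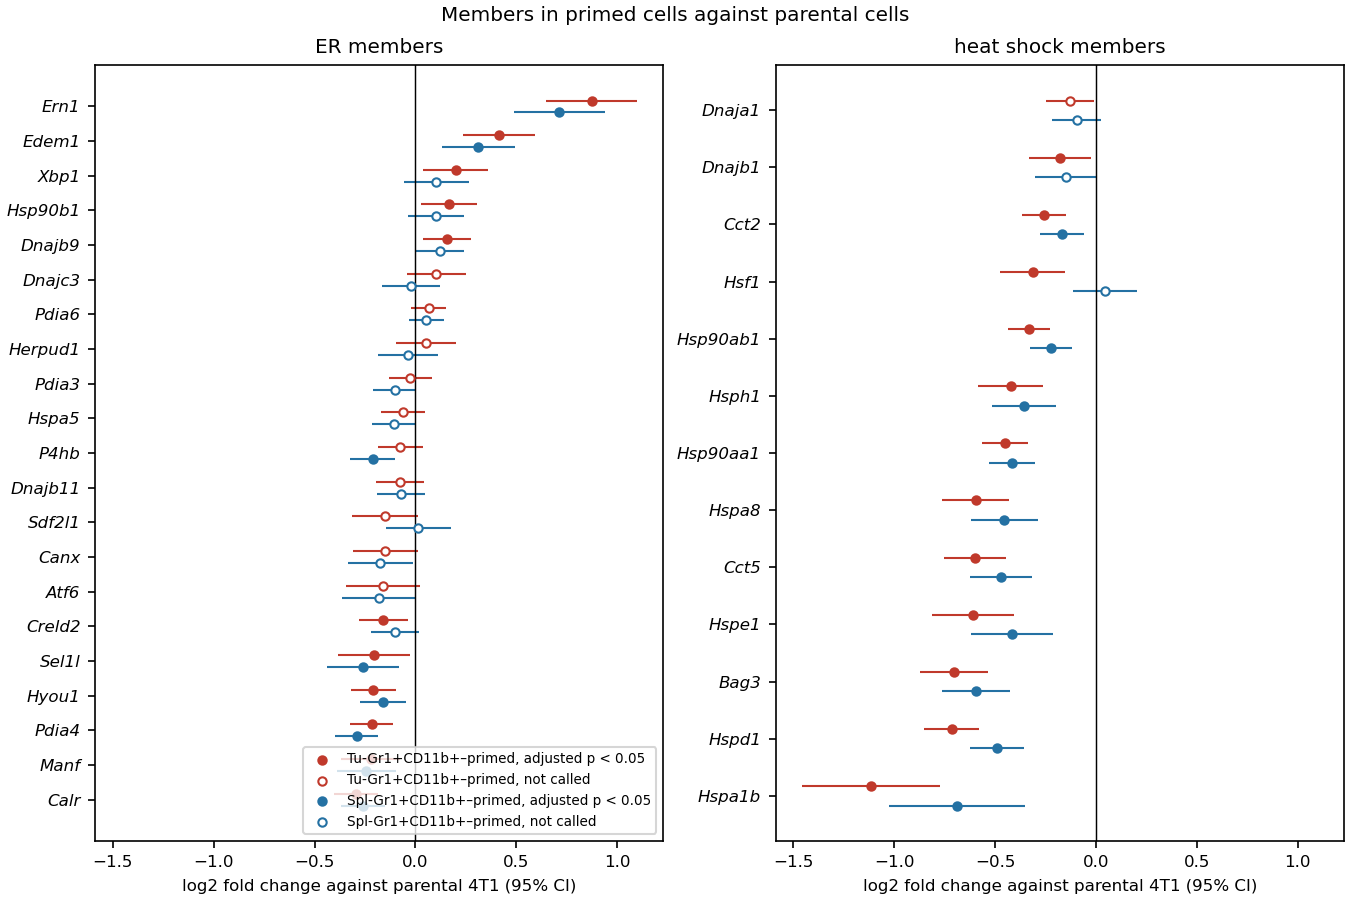
Log2 fold change of each tested member against parental 4T1 cells with its 95% confidence interval, for Tu-Gr1+CD11b+–primed (red) and Spl-Gr1+CD11b+–primed cells (blue), filled where the adjusted p was under 0.05. Heat shock members sit to the left of 0 except *Hsf1* in Spl-Gr1+CD11b+–primed cells (0.046), and ER members spread to both sides.

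The heat shock members included libraries of unequal level within a group. Spl-Gr1+CD11b+–primed replicates 1 and 3 had medians of -0.30 and -0.32 relative to parental cells, and replicates 2 and 4 had -0.46 for both. Replicate 3 of this group was the highest of its 4 libraries for 9 of 13 heat shock members, and parental replicate 4 was the highest for 7. ER members were uneven as well. Of these 21, parental replicate 4 was the lowest of its group for 12. Tu-Gr1+CD11b+–primed replicate 4 was the lowest of its group for 12 and replicate 3 the highest for 13. Calls made without each library are given with the alternatives.

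*Hspd1* (chr1:55077835-55088243, minus strand) encodes the mitochondrial chaperonin HSP60. Its level was 693, 673, 670.5 and 672 CPM in the Tu-Gr1+CD11b+–primed libraries, 881, 744, 826 and 714 CPM in the Spl-Gr1+CD11b+–primed libraries and 1118, 1090, 1168 and 1073 CPM in the parental libraries. The 3 groups did not overlap. It fell by 0.72 ± 0.064 (SE) on the log2 scale in Tu-Gr1+CD11b+–primed cells against parental cells (adjusted p = 1.13e-06, the smallest of any member) and by 0.49 ± 0.064 in Spl-Gr1+CD11b+–primed cells (adjusted p = 4.54e-05). *Hspe1*, which encodes its HSP10 partner, fell by 0.61 ± 0.094 and 0.42 ± 0.094 in the same comparisons (adjusted p = 9.23e-05 and 0.00252). The run of heat shock units shown above lies between the starts of this pair. Of the 31-base stretches of *Hspe1* transcripts, 23.1% also occur in the gene *AC117239.2*, so the division of reads between them is uncertain. *AC117239.2* was assigned 702 to 1201 reads per library and was itself lower by 0.73 ± 0.101 and 0.48 ± 0.1. Both calls of *Hspe1* were kept in all 24 alternatives.

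*Bag3* (chr7:128523616-128546981, plus strand) encodes a co-chaperone that links HSP70 clients to autophagy. Tu-Gr1+CD11b+–primed libraries held 67.9, 68.0, 67.0 and 70.3 CPM, Spl-Gr1+CD11b+–primed libraries 72.6, 72.2, 81.8 and 68.3 CPM and parental libraries 103, 97.6, 117 and 127 CPM. Both primed groups lay below every parental library and overlapped each other. The log2 fold change against parental cells was -0.70 ± 0.079 (adjusted p = 7.16e-06) with tumor-derived and -0.59 ± 0.079 (adjusted p = 5.49e-05) with spleen-derived Gr1+ cells.

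*Hsp90aa1* (chr12:110690605-110702728, minus strand) encodes the inducible cytosolic HSP90. It was at 2111, 2086, 2115 and 2092 CPM in Tu-Gr1+CD11b+–primed, 2326, 2083, 2089 and 2093 CPM in Spl-Gr1+CD11b+–primed and 2876, 2744, 3024 and 2840 CPM in parental libraries. All 8 primed libraries were below all parental ones, and Spl-Gr1+CD11b+–primed replicate 1 was above the other 7. The change was -0.450 ± 0.053 (adjusted p = 1.1e-05) and -0.42 ± 0.053 (adjusted p = 4.02e-05). Its constitutive relative *Hsp90ab1* fell by 0.33 ± 0.049 and 0.22 ± 0.049 (adjusted p = 5.99e-05 and 0.00197).

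*Cct5* (chr15:31590800-31601804, minus strand) encodes a subunit of the CCT chaperonin, which folds actin and tubulin. Its values were 706, 715, 668 and 724 CPM in Tu-Gr1+CD11b+–primed, 797, 746, 822 and 718 CPM in Spl-Gr1+CD11b+–primed and 1003, 947, 1137 and 1181 CPM in parental libraries. No primed library reached the lowest parental one. The log2 fold change was -0.60 ± 0.072 (adjusted p = 1.15e-05) and -0.47 ± 0.072 (adjusted p = 0.000162). *Cct2*, another subunit, fell by 0.26 ± 0.05 and 0.17 ± 0.05 (adjusted p = 0.000615 and 0.0138).

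The HSP70 genes also fell. *Hspa1b* gave 23.3, 18.8, 27.3 and 23.7 CPM in Tu-Gr1+CD11b+–primed, 32.7, 29.1, 35.5 and 28.0 CPM in Spl-Gr1+CD11b+–primed and 53.0, 36.8, 44.1 and 67.9 CPM in parental libraries. These groups did not overlap, and the fitted level was 0.461 and 0.62 times that of parental cells (log2 fold change -1.12 ± 0.16 and -0.69 ± 0.158, adjusted p = 5.1e-05 and 0.00273). *Hspa8* fell by 0.60 ± 0.077 and 0.45 ± 0.077 (adjusted p = 2.11e-05 and 0.000338). Reads of *Hspa8* are hard to tell from those of the processed pseudogene *Gm15459*, which shares 38.6% of its 31-base words, was assigned 50331 to 87666 reads per library and was itself lower by 0.63 ± 0.064 and 0.58 ± 0.064. With such copies added to their member, *Hspa8* changed by -0.61 and -0.51. *Hsph1*, an HSP110-type partner that exchanges nucleotide on HSP70, fell by 0.42 ± 0.075 and 0.36 ± 0.074 (adjusted p = 0.000263 and 0.00146).

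The J-domain co-chaperones of HSP70 gave small values. *Dnajb1* fell by 0.18 ± 0.072 in Tu-Gr1+CD11b+–primed cells (adjusted p = 0.0461), a call that was lost in 14 of 24 alternatives, and gave -0.15 ± 0.072 in Spl-Gr1+CD11b+–primed cells (adjusted p = 0.103). *Dnaja1* gave -0.13 ± 0.056 and -0.095 ± 0.056 (adjusted p = 0.0601 and 0.175).

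**Figure D3:**
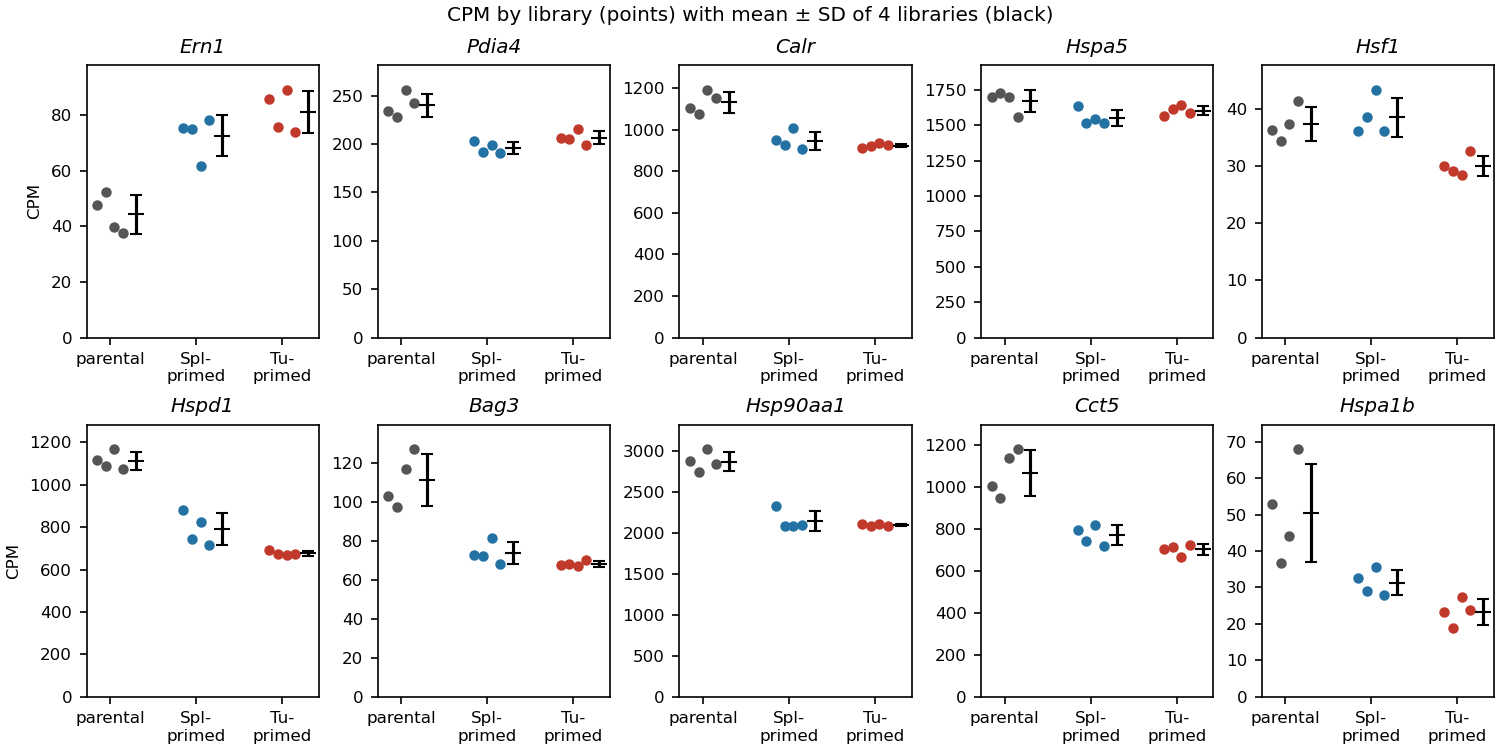
CPM of 10 members in each library (points) with the mean and SD of the 4 libraries of a group (black), on axes that start at 0. *Ern1* is higher in all 8 primed libraries, *Hspd1*, *Bag3*, *Hsp90aa1*, *Cct5* and *Hspa1b* are lower in all 8, *Hsf1* is lower in the 4 Tu-Gr1+CD11b+–primed libraries than in the other groups, and *Hspa5* overlaps between groups.

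Among ER members, *Ern1* (chr11:106394650-106487852, minus strand), which encodes the UPR sensor IRE1, had the largest change. Its level was 85.7, 75.7, 89.0 and 74.0 CPM in Tu-Gr1+CD11b+–primed, 75.3, 75.0, 61.6 and 78.1 CPM in Spl-Gr1+CD11b+–primed and 47.6, 52.2, 39.7 and 37.5 CPM in parental libraries. Every primed library was above every parental one, and the primed groups overlapped. The fitted rise was 1.83-fold (log2 fold change 0.87 ± 0.106, adjusted p = 1.28e-05) with tumor-derived and 1.64-fold (0.71 ± 0.105, adjusted p = 0.000127) with spleen-derived Gr1+ cells. *Xbp1*, whose RNA IRE1 splices, rose by 0.20 ± 0.075 in Tu-Gr1+CD11b+–primed cells (adjusted p = 0.0332) and gave 0.104 ± 0.075 in Spl-Gr1+CD11b+–primed cells (adjusted p = 0.271). The form of *Xbp1* that IRE1 makes was not measured, since the shortest intron of any annotated *Xbp1* transcript is 300 bases, far longer than the piece that IRE1 removes.

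The other genes of the degradation arm split. *Edem1*, a lectin that directs misfolded glycoproteins to degradation, rose by 0.415 ± 0.084 and 0.31 ± 0.084 (adjusted p = 0.000776 and 0.00746). Both calls were lost with DESeq2 and transcript length offsets, which gave 0.216 (adjusted p = 0.139) and 0.002 (adjusted p = 0.991). *Sel1l*, the adaptor of the ubiquitin ligase complex, fell by 0.20 ± 0.083 (adjusted p = 0.0471) and 0.26 ± 0.083 (adjusted p = 0.0192), and the first of these calls was lost in 14 of 24 alternatives. *Herpud1*, a further component of that complex, gave 0.052 ± 0.069 and -0.037 ± 0.069 (adjusted p = 0.542 and 0.679).

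*Calr* (chr8:84841850-84846934, minus strand) encodes calreticulin. It was at 914, 919.9, 934 and 925 CPM in Tu-Gr1+CD11b+–primed, 950.0, 924, 1006 and 905 CPM in Spl-Gr1+CD11b+–primed and 1103, 1078, 1191 and 1155 CPM in parental libraries. Primed libraries were below parental ones without exception. It fell by 0.29 ± 0.051 and 0.26 ± 0.051 (adjusted p = 0.000231 and 0.000992). Its membrane-bound relative *Canx* gave -0.15 ± 0.075 and -0.17 ± 0.075 (adjusted p = 0.0997 and 0.0695).

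*Pdia4* (chr6:47796141-47813430, minus strand) encodes a protein disulfide isomerase. Its values were 206, 205, 215 and 199 CPM in Tu-Gr1+CD11b+–primed, 204, 192, 199 and 190.3 CPM in Spl-Gr1+CD11b+–primed and 234, 228, 256 and 242 CPM in parental libraries. Again no primed library reached the lowest parental one, and the fall was 0.22 ± 0.05 and 0.29 ± 0.05 on the log2 scale (adjusted p = 0.00207 and 0.000383). The founding isomerase *P4hb* fell by 0.21 ± 0.052 with spleen-derived Gr1+ cells (adjusted p = 0.00426) and gave -0.074 ± 0.052 with tumor-derived ones (adjusted p = 0.235), and the difference between the primed groups was 0.14 ± 0.052 (adjusted p = 0.129). For *Pdia3* the values were -0.026 ± 0.049 and -0.10 ± 0.049, and for *Pdia6* 0.065 ± 0.04 and 0.054 ± 0.04, none of them called.

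BiP itself did not pass the test. *Hspa5* was at 1565, 1618, 1641 and 1591 CPM in Tu-Gr1+CD11b+–primed, 1635, 1520, 1544 and 1514 CPM in Spl-Gr1+CD11b+–primed and 1702, 1728, 1702 and 1557 CPM in parental libraries, with parental replicate 4 inside the range of the primed libraries. Its log2 fold change was -0.06 (95% CI -0.17 to 0.05, adjusted p = 0.327) and -0.11 (95% CI -0.216 to 0.003, adjusted p = 0.1). Without parental replicate 4 the latter became -0.14 (adjusted p = 0.0361). *Hsp90b1* rose by 0.17 ± 0.065 with tumor-derived Gr1+ cells (adjusted p = 0.0383) and gave 0.10 ± 0.065 with spleen-derived ones (adjusted p = 0.207).

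The helpers of BiP were divided. *Hyou1*, its nucleotide exchange factor, fell by 0.21 ± 0.053 and 0.162 ± 0.053 (adjusted p = 0.00377 and 0.0205), and *Manf*, a secreted ER-stress factor, by 0.22 ± 0.069 and 0.24 ± 0.069 (adjusted p = 0.0128 and 0.00957). *Creld2*, a secreted factor induced by ER stress, fell by 0.16 ± 0.056 in Tu-Gr1+CD11b+–primed cells (adjusted p = 0.0246) and gave -0.10 ± 0.056 in Spl-Gr1+CD11b+–primed cells (adjusted p = 0.146). Of the ER J-domain genes, *Dnajb9* rose by 0.158 ± 0.055 with tumor-derived Gr1+ cells (adjusted p = 0.0242) and gave 0.12 ± 0.055 with spleen-derived ones (adjusted p = 0.0851). The remaining members were not called: *Dnajc3* (0.103 ± 0.068 and -0.022 ± 0.068), *Dnajb11* (-0.075 ± 0.056 and -0.071 ± 0.056), its partner *Sdf2l1* (-0.15 ± 0.076 and 0.014 ± 0.075) and the sensor *Atf6* (-0.16 ± 0.085 and -0.18 ± 0.085). Among the element-bearing members, *Hsp90b1* rose and *Calr* and *Creld2* fell in Tu-Gr1+CD11b+–primed cells. *Hspa5*, *Canx*, *Dnajc3* and *Pdia6* were not called in either comparison with parental cells. Those whose sequences are shown above were chosen partly by these calls. The small calls of *Hsp90b1*, *Dnajb9*, *Xbp1* and *Creld2* in Tu-Gr1+CD11b+–primed cells were lost in 9, 9, 7 and 6 of 24 alternatives.

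Comparison of Tu-Gr1+CD11b+–primed with Spl-Gr1+CD11b+–primed cells asks whether the source of the Gr1+ cells made a difference. None of the 21 ER members was called by edgeR. Of all genes 4.66% were higher and 2.97% lower, so few or none of 21 genes would be called at these shares. At an unadjusted p under 0.05, 1 ER member was higher (*P4hb*) and 1 lower (*Sdf2l1*, -0.164 ± 0.075), and DESeq2 and limma-voom called 0 in either direction. The 95% intervals of the ER members' log2 differences lay between -0.325 and 0.383. For *Ern1* the difference was 0.16 (95% CI -0.06 to 0.38, adjusted p = 0.39).

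In this contrast 2 of 13 tested heat shock members (15.4%) were lower in Tu-Gr1+CD11b+–primed cells, *Hsf1* and *Hspd1*. All 13 fitted log2 differences were negative, against 53.8% of those of all genes. Their median was -0.11 against -0.01 for all genes, and -0.07 without Spl-Gr1+CD11b+–primed replicate 3. Further lists described below leaned the same way. Negative differences made up 91.7% of the other chaperonin and prefoldin genes, 90.9% of the other mitochondrial genes and 70.4% of the other cytosolic chaperones. Among ER members they made up 23.8%.

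*Hsf1* (chr15:76477422-76501913, plus strand) encodes the master regulator of the heat shock response. Its level was 30.02, 29.2, 28.4 and 32.6 CPM in Tu-Gr1+CD11b+–primed, 36.2, 38.6, 43.4 and 36.1 CPM in Spl-Gr1+CD11b+–primed and 36.4, 34.4, 37.4 and 41.4 CPM in parental libraries. The Tu-Gr1+CD11b+–primed libraries lay below all 8 others, which overlapped. The difference between the primed groups was -0.36 ± 0.074 (adjusted p = 0.00829), the difference from parental cells -0.31 ± 0.075 (adjusted p = 0.00245) and that of Spl-Gr1+CD11b+–primed from parental cells 0.046 ± 0.074 (adjusted p = 0.634). The call against parental cells was lost with DESeq2 and length offsets (-0.255, adjusted p = 0.0632), and the call between the primed groups was kept in all 24 alternatives, with log2 values between -0.43 and -0.28.

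*Hspd1*, whose values are given above, was lower by 0.225 ± 0.064 in Tu-Gr1+CD11b+–primed than in Spl-Gr1+CD11b+–primed cells (adjusted p = 0.045). This call stood at the threshold and was lost in 15 of 24 alternatives, with adjusted p between 0.0092 and 0.124. *Hspa1b* had the largest fitted difference (-0.43 ± 0.161) with libraries that did not overlap, but an adjusted p of 0.129. The other 10 tested heat shock members had differences between -0.195 (*Hspe1*) and -0.029 (*Dnajb1*), none of them called.

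**Figure D4:**
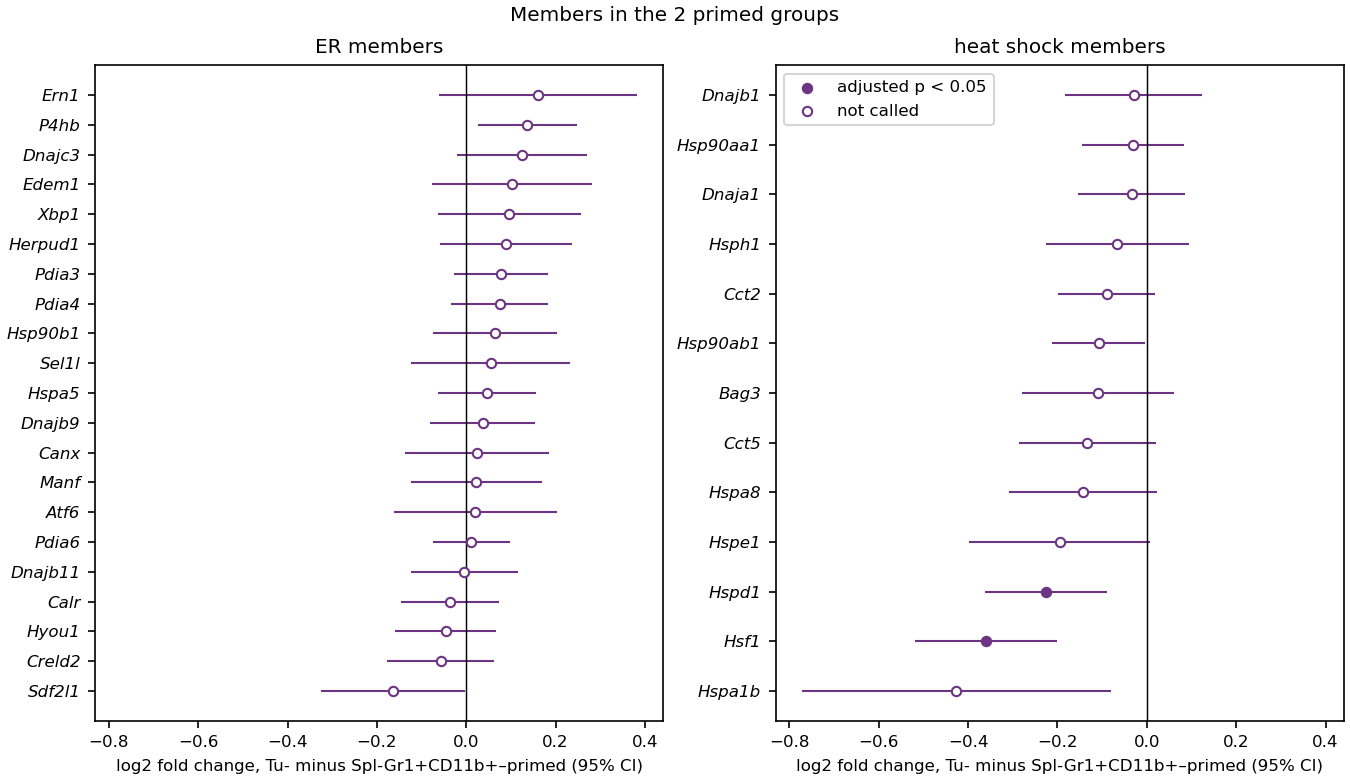
Log2 difference between Tu-Gr1+CD11b+–primed and Spl-Gr1+CD11b+–primed cells for each tested member with its 95% confidence interval, filled where the adjusted p was under 0.05. *Hsf1* (-0.36) and *Hspd1* (-0.23) are the filled points, and all heat shock members lie left of 0, while ER members spread on both sides.

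For 19 members, 12 of the ER and 7 of the heat shock group, some reads lay on transcripts annotated as retained-intron or decay forms. Among the 7 heat shock members with annotated retained-intron or decay transcripts, the share of reads on them was higher in every Tu-Gr1+CD11b+–primed than in every parental library for 6, and likewise for 6 in Spl-Gr1+CD11b+–primed cells. Over 6666 genes with such transcripts and at least 100 reads in each library, this held for 38.8% and 35.4%. The ER members gave 5 and 4 of 12. Between the primed groups it held for 0 of the 19 members, against 2.88% of all genes. In *Hsf1* the share was 13.1% ± 0.815 in Tu-Gr1+CD11b+–primed, 13.1% ± 2.27 in Spl-Gr1+CD11b+–primed and 3.49% ± 0.886 in parental cells (SD, n = 4). In *Hsph1* it was 10.1% ± 1.31, 8.96% ± 0.722 and 5.86% ± 0.64. The other genes of the 6 had small mean shares in the same order of groups. These were 0.93%, 0.91% and 0.12% in *Hspe1* and 0.51%, 0.56% and 0.16% in *Hspa8*. *Cct5* had 0.36%, 0.31% and 0.064%, and *Hsp90ab1* had 0.14%, 0.11% and 0.026%. *Hsp90aa1* was the exception among the 7, at 1.93%, 1.75% and 1.82%. Counted on protein-coding transcripts alone, *Hsf1* differed between the primed groups by -0.361, and its value against parental cells in Spl-Gr1+CD11b+–primed cells turned from 0.046 to -0.067 (adjusted p = 0.494).

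**Figure D5:**
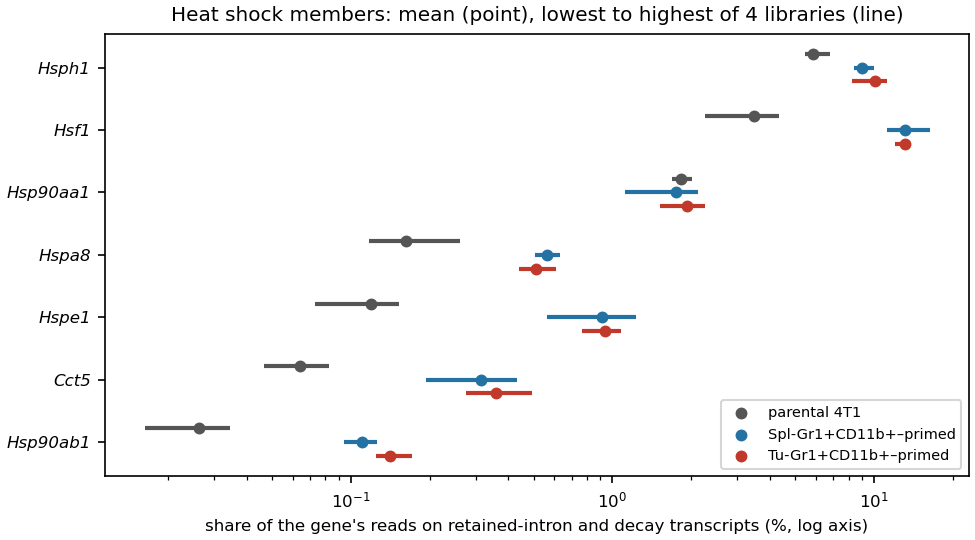
Share of each gene's reads on retained-intron and nonsense-mediated decay transcripts, in percent on a log axis, for the 7 heat shock members that have such transcripts, with the mean (points) and the range of 4 libraries (lines). In 6 of the 7 genes both primed groups lie to the right of the parental group without overlap, and in *Hsp90aa1* the groups overlap.

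Further genes of the same pathways were read from written lists, whose counts stand against 28.0% of all genes lower and 31.2% higher with tumor-derived and 22.5% lower and 25.7% higher with spleen-derived Gr1+ cells. Of 12 other chaperonin and prefoldin genes, 9 were lower in Tu-Gr1+CD11b+–primed against parental cells and 10 in Spl-Gr1+CD11b+–primed cells (75.0% and 83.3%), with medians of -0.41 and -0.34. *Cct6a*, a CCT subunit, fell by 0.49 ± 0.053 and 0.41 ± 0.053 (adjusted p = 4.77e-06 and 4.02e-05). All 6 CCT subunit genes of this list were lower in both comparisons, a grouping made after their values were seen. Of 27 other cytosolic chaperones, 17 were lower and 4 higher with tumor-derived (63.0% and 14.8%) and 14 lower and 3 higher with spleen-derived Gr1+ cells (51.9% and 11.1%). *Cdc37*, which brings kinases to HSP90, fell by 0.64 ± 0.076 and 0.37 ± 0.076. It was the single gene of this list called between the primed groups (-0.27 ± 0.076, adjusted p = 0.0453). That is 3.7% of the list lower, near the 2.97% of all genes. The call stood at the threshold, and its alternatives are not given here. *Stip1*, which joins HSP70 to HSP90, was lower in both comparisons, at -0.35 ± 0.054 and -0.37 ± 0.054 (adjusted p = 9.33e-05 and 0.000114). In the other direction, the J-domain gene *Dnajb2* rose by 0.31 ± 0.068 and 0.47 ± 0.068. Of 11 other mitochondrial chaperone and protease genes, 6 were lower with tumor-derived (54.5%), and 5 were lower and 3 higher with spleen-derived Gr1+ cells (45.5% and 27.3%, the latter near the share of all genes). In this list *Dnaja3* fell by 0.351 ± 0.05 in Tu-Gr1+CD11b+–primed cells, *Hspa9*, the mitochondrial HSP70, fell by 0.26 ± 0.054 in Spl-Gr1+CD11b+–primed cells, and *Timm44*, which anchors it at the import channel, rose there by 0.197 ± 0.047. Values of these genes in the other comparison with parental cells are not given here.

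The ER lists held genes of both directions, and their shares stand against the same background of all genes (31.2% higher and 28.0% lower with tumor-derived, 25.7% and 22.5% with spleen-derived Gr1+ cells). Of 22 other ER folding genes tested against parental cells, tumor-derived Gr1+ cells gave 6 higher and 5 lower (27.3% and 22.7%), and spleen-derived ones 4 higher and 4 lower (18.2% each). The prolyl isomerase gene *Fkbp14* rose by 0.984 ± 0.095 and 0.61 ± 0.096 (adjusted p = 2.19e-06 and 0.000198). *Ero1l*, the oxidase that recharges disulfide isomerases, rose by 0.985 ± 0.099 and 0.53 ± 0.098, and both genes were also higher in Tu-Gr1+CD11b+–primed than in Spl-Gr1+CD11b+–primed cells (0.455 ± 0.098, adjusted p = 0.0104, for *Ero1l* and 0.37 ± 0.091, adjusted p = 0.0218, for *Fkbp14*). In the same list *Fkbp2* was lower in both comparisons, at -0.42 ± 0.082 and -0.36 ± 0.081 (adjusted p = 0.000539 and 0.00272). *Uggt1*, the folding sensor of the calnexin cycle, was also lower in both, at -0.31 ± 0.061 and -0.32 ± 0.061 (adjusted p = 0.000669 and 0.000835). Of 24 ER-associated degradation and translocon genes, 5 were higher and 8 lower with tumor-derived (20.8% and 33.3%) and 5 higher and 9 lower with spleen-derived Gr1+ cells (20.8% and 37.5%). *Syvn1*, the ubiquitin ligase HRD1 that works with SEL1L, rose by 0.57 ± 0.074 and 0.63 ± 0.074 (adjusted p = 2.13e-05 and 2.33e-05), whereas the extraction ATPase *Vcp* fell by 0.53 ± 0.061 and 0.48 ± 0.061. Of 12 other UPR signalling genes tested, 6 were higher and 2 lower with tumor-derived (50% and 16.7%) and 2 higher and 3 lower with spleen-derived Gr1+ cells (16.7% and 25.0%). *Eif2ak3*, which encodes the sensor PERK, rose by 0.47 ± 0.094 and 0.50 ± 0.094 (adjusted p = 0.00069 and 0.000721), and its substrate gene *Eif2s1* fell by 0.36 ± 0.056 and 0.34 ± 0.056. *Ppp1r15a*, the phosphatase subunit that reverses PERK signalling, was the single UPR signalling gene called between the primed groups, with a log2 difference of 0.41 ± 0.069 (adjusted p = 0.00201). That is 8.3% of this list higher, against 4.66% of all genes.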

How the data were processed

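RNA-Seq was done on 12 libraries. Per the labels, a TruSeq stranded kit was used, and the submitters' processing notes name FastQC, Trimmomatic 0.39, Salmon 1.4.0 and GRCm38 (mm10). For each library the authors deposited the estimated count of reads per Ensembl transcript, not normalized, with TPM values that the authors' quantification scaled for length and library size and an effective length (other). A deposited table of normalized values was not used.

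Estimated counts were summed per gene with GENCODE M21 (116021 of 117081 transcripts matched) and rounded. All 12 libraries entered one edgeR 4.0.16 model (R 4.3.3) with filterByExpr, TMM and quasi-likelihood tests, Benjamini-Hochberg adjustment over 12555 genes and a threshold of 0.05. Levels are CPM. The SE of a log2 fold change was taken as its size over the square root of the F statistic, and confidence intervals are at 95%. limma 3.58.1, DESeq2 1.42.0, Python 3.11.15, pandas 2.3.3, numpy 2.4.6 and matplotlib 3.10.9 were also used, and the fits were tested on simulated data. Promoter sequences are from RefSeq (GRCm38.p6). Near copies were genes that share at least 10% of a member's 31-base words.

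The members, lists and tests were chosen with earlier results of these data known. All 36 members are named; from every further list, the called gene of smallest p in each direction and comparison is named. Values in every library are given for the members called between the primed groups and, of the rest, for the 3 ER and 3 heat shock members of smallest p against parental cells; those of *Hspa5* and *Hspa1b* were added after their values were seen. The 24 alternatives were each of the 12 libraries left out, DESeq2 with and without length offsets, limma-voom, protein-coding transcripts, upper-quartile or RLE scaling, the filter removed or replaced by a minimum of 10 counts, a fit of the 8 libraries of a comparison, the replicate number as a block, an adjusted p under 0.01 and, added after seeing the data, near copies summed with their member. A left-out library leaves at least 3 in its group.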

Additional observations from a re-analysis of the deposited data

Results flagged for a closer look

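*Hsf1* and *Hspd1* passed the test of the difference between the responses to tumor-derived and spleen-derived Gr1+ cells: the log2 difference between Tu-Gr1+CD11b+–primed and Spl-Gr1+CD11b+–primed cells was -0.36 for *Hsf1* (adjusted p = 0.00829) and -0.23 for *Hspd1* (adjusted p = 0.045). The call of *Hsf1* was kept in all 24 alternatives, and that of *Hspd1* was lost in 15 of them, among them each Tu-Gr1+CD11b+–primed library left out.

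In 102 groups of 4 libraries (34 members in 3 groups), 8 had a library far from the other 3 by Dixon's criterion, and chance alone gives about 5.1. In parental replicate 4, *Hspa5* was at 1557 CPM (others 1702 to 1728) and *Dnajb11* at 87.4 CPM (others 93.3 to 93.8). In Spl-Gr1+CD11b+–primed replicate 1, *Hsp90aa1* was at 2326 CPM (others 2083 to 2093) and *Hsph1* at 425 CPM (others 357 to 366). *Sel1l* was at 86.4 CPM in replicate 3 of that group (others 116 to 118) and *P4hb* at 716 CPM in its replicate 4 (others 724 to 726). *Hspd1* was at 693 CPM in Tu-Gr1+CD11b+–primed replicate 1 (others 670.5 to 673), and *Cct2* at 696 CPM in parental replicate 3 (others 669.6 to 674).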

How the results depend on the processing

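Over the called members, *Hspa5* in every comparison, *Ern1* between the primed groups and *Hsf1* in Spl-Gr1+CD11b+–primed against parental cells, 1059 of the values under the alternatives kept direction and side of the threshold, 87 lost the call, 4 gained it and 2 reversed. The reversals were *Hsf1* in Spl-Gr1+CD11b+–primed against parental cells, from 0.046 to -0.067 on protein-coding transcripts and to -0.033 without Spl-Gr1+CD11b+–primed replicate 3 (range -0.033 to 0.098 with 1 library left out). *Hspa5* in Spl-Gr1+CD11b+–primed against parental cells was called with DESeq2 (-0.131, adjusted p = 0.00535), RLE normalization (adjusted p = 0.0417), length offsets (adjusted p = 0.0277) and without parental replicate 4 (-0.14, adjusted p = 0.0361). The number of heat shock members lower between the primed groups was 2, and 1 with RLE normalization, no filter, at least 10 counts, the replicate block or an adjusted p under 0.01. ER members higher in Tu-Gr1+CD11b+–primed than parental cells numbered 5, and 2 with no filter, length offsets or an adjusted p under 0.01. Those lower numbered 6, and 3 under an adjusted p of 0.01. In Spl-Gr1+CD11b+–primed cells 2 ER members were higher, 1 with length offsets and 3 on protein-coding transcripts. There 6 were lower, 10 with DESeq2, 9 with length offsets or RLE normalization and 4 on protein-coding transcripts or under an adjusted p of 0.01. The median of the ER members between the primed groups was 0.046, and 0.071 without Spl-Gr1+CD11b+–primed replicate 1. The causes were not tested.

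With 1 library left out, ER members higher and lower numbered 0 and 0 between the primed groups, 2 to 5 and 4 to 7 in Tu-Gr1+CD11b+–primed against parental cells, and 2 and 5 to 9 in Spl-Gr1+CD11b+–primed against parental cells. Heat shock members lower numbered 1 to 3, 11 to 13 and 9 to 12, and 0 were higher in each. The 5 ER members higher became 2 without Tu-Gr1+CD11b+–primed replicate 2 or 3, and 3 without replicate 1 of that group or parental replicate 2 or 3. The 2 heat shock members lower between the primed groups became 1 without any single Tu-Gr1+CD11b+–primed library, Spl-Gr1+CD11b+–primed replicate 1, 2 or 3 or parental replicate 1 or 3, and 3 without parental replicate 4. The 4 to 7 range reached 4 without Tu-Gr1+CD11b+–primed replicate 2 or 3, and the 5 to 9 range reached 9 without parental replicate 4 or Spl-Gr1+CD11b+–primed replicate 3.

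Single libraries ended several small calls, and the adjusted p without each is given as a range. In Tu-Gr1+CD11b+–primed against parental cells these were *Hsp90b1* without any single Tu-Gr1+CD11b+–primed library or parental replicate 3 or 4 (0.0522 to 0.115), *Dnajb9* without Tu-Gr1+CD11b+–primed replicate 1, 2 or 3 or parental replicate 2 or 3 (0.0534 to 0.0675), *Xbp1* without Tu-Gr1+CD11b+–primed replicate 2 or 3 or parental replicate 1 or 2 (0.079 to 0.107), *Creld2* without Tu-Gr1+CD11b+–primed replicate 2 or 3 or parental replicate 4 (0.0557 to 0.0707), *Sel1l* without Tu-Gr1+CD11b+–primed replicate 2, 3 or 4, Spl-Gr1+CD11b+–primed replicate 2 or 4 or any single parental library (0.0519 to 0.104), and *Dnajb1* without Tu-Gr1+CD11b+–primed replicate 1 or 3, Spl-Gr1+CD11b+–primed replicate 2 or 4 or any single parental library (0.0553 to 0.151). In Spl-Gr1+CD11b+–primed against parental cells they were *Hyou1* without replicate 4 of that group or parental replicate 1 (0.0521 and 0.0685) and *Cct2* without replicate 4 of that group (0.05). Between the primed groups, *Hspd1* gave 0.0509 to 0.124 without the libraries named above.

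Same-numbered libraries of different groups had correlations between -0.164 and 0.148 in their deviations from the group means, so the numbers were not taken as pairs. With the replicate block, 1 heat shock member (*Hsf1*) was lower between the primed groups, and *Hspd1* (-0.22, adjusted p = 0.0562), *Sel1l* (adjusted p = 0.0539) and *Dnajb1* (adjusted p = 0.0654) lost their calls.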
